A study of Mus musculus with 7 samples.

Results

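Bone and cartilage markers were followed in mouse nasal tissue after diesel exhaust particle (DEP) inhalation. The set held 10 genes that mark the cells that build, maintain, resorb and precede mineralized tissue, namely Bglap, Ibsp, Alpl, Runx2, Sp7, Dmp1, Acan, Sox9, Ctsk and Acp5. Every array probe that was no control and whose transcript identifier mapped to one of these symbols was taken. The 10 genes, of 21367 named on the array, had 14 probes on 23 spots, and 13 of these probes passed the filter on dim signals, so that all 10 genes were among the 15701 genes tested. A probe passed when it was well above background, as the scanner software marks it, in at least 1 channel on at least 3 of the 7 arrays. Where a gene had several tested probes, the brightest was used for counts, and the other probes of the 10 genes are given beside it.

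The mice were female BALB/c animals aged 6 weeks at the start, and both arms came from the same strain, sex and age. The DEP groups inhaled 100 ug/m3 DEPs suspended in saline from an ultrasonic nebulizer for 1 hour a day on 5 days a week, for 4 weeks or for 8 weeks, and the control group, per the study's methods, received saline in the same way. The tissue was the nasal septum with the turbinates, taken between the incisive papilla and the level of the second molar, so it held bone and cartilage beside mucosa. On each 2-colour array the RNA of a DEP-exposed sample carried Cy5 and that of a control sample Cy3, with 4 arrays at 4 weeks on slide 1 and 3 arrays at 8 weeks on slide 2. The labels call the arrays biological replicates, but they do not say whether control RNA was shared between arrays or how many animals gave each sample. No dye was swapped, so exposure and dye cannot be told apart, nor can the slide, the length of exposure and the age at tissue collection. In whole tissue, fewer cells of a type and less RNA per cell cannot be told apart.

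Bone is laid down by osteoblasts, which secrete collagen and mineral-binding proteins, and some of them become buried in the matrix as osteocytes. Cartilage, the material of the anterior nasal septum, is made by chondrocytes. Osteoclasts, multinucleated cells of the macrophage lineage, dissolve mineral with acid and digest the exposed matrix with proteases. The thin turbinate bones carry the olfactory and respiratory mucosa, so RNA of these cells is part of any extract of the whole structure.

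The 250 bases before the transcription start of Bglap and Ibsp are written out from RefSeq (build GRCm38.p6), because both belong to the osteoblast genes whose log2 ratios moved together. Bglap lies on the minus strand, and the window is chr3:88384467-88384716. Ibsp lies on the plus strand, and the window is chr5:104299037-104299286. Capitals mark matches on either strand to ACCACA (the core bound by Runx factors), TATAAA (the TATA box) and CCAAT (the CCAAT box), 3 motifs whose matches do not overlap here.
Bglap: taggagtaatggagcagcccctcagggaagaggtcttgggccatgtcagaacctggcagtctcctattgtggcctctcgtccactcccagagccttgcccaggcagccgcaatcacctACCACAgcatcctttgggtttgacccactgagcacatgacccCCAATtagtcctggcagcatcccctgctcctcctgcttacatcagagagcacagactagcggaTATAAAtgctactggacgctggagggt
Ibsp: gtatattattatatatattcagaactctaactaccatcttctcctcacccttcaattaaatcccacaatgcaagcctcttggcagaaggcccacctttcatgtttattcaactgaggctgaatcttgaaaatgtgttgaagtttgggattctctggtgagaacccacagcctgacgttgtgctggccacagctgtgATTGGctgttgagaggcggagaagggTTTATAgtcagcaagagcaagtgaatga

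The Bglap window held ACCACA starting 132 bases upstream, CCAAT 90 bases upstream and TATAAA 27 bases upstream. The Ibsp window held the reverse complements of CCAAT and TATAAA, 54 and 28 bases upstream, and no ACCACA. Among the 32851 promoter windows of that table, 14.0% held ACCACA, 12.4% held TATAAA and 33.8% held CCAAT. Entries were found for 8 of the 10 genes, with 12 start sites. ACCACA was present for 3 of these 8 (Bglap, Dmp1 and Runx2), TATAAA for 3 (Bglap, Ibsp and Alpl) and CCAAT for 5 (Bglap, Ibsp, Dmp1, Acan and Acp5). A gene was counted when any of its start sites had a match, so these counts are not on the same base as the shares per window. A match describes letters only, and such short motifs are common in all promoters.

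At 4 weeks, 6 of the 10 genes were lower in DEP tissue at an adjusted p of at most 0.05 (Bglap, Ibsp, Alpl, Sox9, Ctsk and Acp5), where 17.9% of all genes tested were lower. Runx2 alone was called higher, where 20.5% of all genes were. At 8 weeks, 5 of the same 6 genes were higher (Bglap, Ibsp, Alpl, Sox9 and Ctsk), against 17.5% of all genes, but with each array centred on its median in place of loess only Bglap was still called and Ibsp turned to -0.12. Acp5 alone was lower at 8 weeks, against 19.6% of all genes. The count of 5 fell to 2 without replicate 2 and to 3 without replicate 3 of the 8-week arrays.

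The median log2 ratio of the 10 genes was -0.30 at 4 weeks and 0.20 at 8 weeks, where the median of all genes tested was -0.0092 and -0.019. The 8-week median was 0.039 after median centring. None of the 10 passed the thresholds that the study's methods state, an unadjusted p of at most 0.01 with a change of at least 2-fold, at either time. Of all genes, 0.796% were higher and 0.446% lower by that rule at 4 weeks, and 1.60% were higher and 0.981% lower at 8 weeks.

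**Figure D1:**
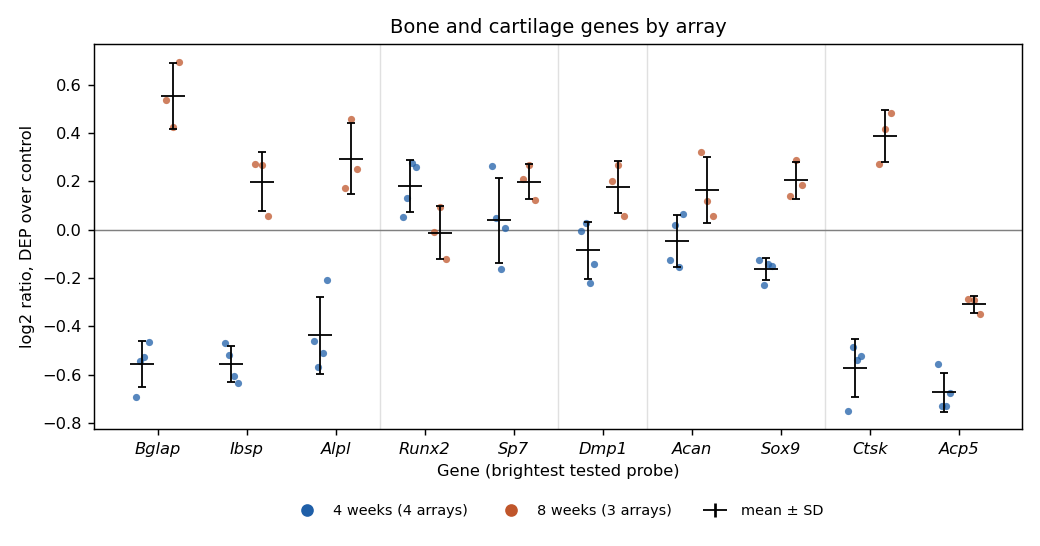
Log2 ratio of DEP over control for each of the 10 genes (horizontal axis, ordered by role) on the 4 arrays of 4 weeks (blue) and the 3 arrays of 8 weeks (orange), with mean and SD in black. Bglap, Ibsp, Alpl, Sox9 and Ctsk lay below 0 on every 4-week array and above 0 on every 8-week array, and Acp5 lay below 0 on all 7. After median centring, however, the 8-week Ibsp mean was -0.12. The share of all genes that split by sign between the times in this way was not counted.

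Bglap encodes osteocalcin, the vitamin K-dependent calcium-binding protein that mature osteoblasts secrete. Its log2 ratio on the 4 arrays of 4 weeks was -0.69, -0.54, -0.52 and -0.47, and on the 3 arrays of 8 weeks 0.54, 0.43 and 0.70. All 4 early arrays lay below 0 and all 3 late arrays above it, so the times did not overlap. The mean was -0.56 ± 0.095 (SD, n = 4) at 4 weeks, 1.47-fold lower with an adjusted p of 0.00041, and 0.55 ± 0.14 (SD, n = 3) at 8 weeks, 1.47-fold higher with an adjusted p of 0.000755. The Bglap probe stands for 1 of 3 neighbouring, near-identical genes, so which of Bglap, Bglap2 and Bglap3 it read is uncertain.

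The brightest of the 3 tested Bglap3 probes gave -0.28 at 4 weeks (adjusted p = 0.0219) and 0.41 at 8 weeks (adjusted p = 0.00824). The 3 probes disagreed at 4 weeks, when another passed in the opposite direction at 0.65 (adjusted p = 0.00201) and the remaining one gave -0.033 (adjusted p = 0.697), and with them averaged the 4-week value turned to 0.11. The probe of Bglap2 gave -0.15 (adjusted p = 0.137) and 0.35 (adjusted p = 0.0131).

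Ibsp encodes bone sialoprotein, an acidic glycoprotein of the mineralizing matrix. The brighter of its 2 probes gave log2 ratios of -0.47, -0.52, -0.60 and -0.63 at 4 weeks and of 0.27, 0.27 and 0.057 at 8 weeks. The ratio was negative on each early array and positive, though close to 0 on replicate 3, on each late array. The 4-week mean of -0.56 ± 0.076 (SD, n = 4), 1.47-fold lower, had an adjusted p of 0.000277. The 8-week mean of 0.20 ± 0.12 (SD, n = 3) had an adjusted p of 0.0434, and this call was kept in 6 of 19 alternatives. The dimmer probe of the same transcript gave -0.85, -0.79, -0.71 and -0.95 at 4 weeks (adjusted p = 0.000147) and 0.13, 0.059 and -0.26 at 8 weeks (adjusted p = 0.862). Both probes therefore gave the decrease at 4 weeks, and only the brighter was called at 8 weeks.

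Alpl encodes tissue-nonspecific alkaline phosphatase, the enzyme that hydrolyses pyrophosphate, an inhibitor of mineral growth. It gave -0.46, -0.57, -0.51 and -0.21 at 4 weeks and 0.17, 0.46 and 0.25 at 8 weeks. No array of one time reached the values of the other. The mean was -0.44 ± 0.16 (SD, n = 4) at 4 weeks, 1.35-fold lower (adjusted p = 0.00318), and 0.29 ± 0.15 (SD, n = 3) at 8 weeks, 1.23-fold higher (adjusted p = 0.0294). The 8-week mean was 0.018 after median centring, and the call was also lost without replicate 2 or replicate 3 of the 8-week arrays.

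Runx2 and Sp7 encode the transcription factors that commit mesenchymal cells to the osteoblast lineage, with Sp7 (osterix) acting after Runx2. Both were dim. The brightest Runx2 probe was well above background in no control channel at 4 weeks and in 2 of 4 DEP channels, so no fold is given for that time. Its log2 ratio was 0.054, 0.13, 0.28 and 0.26 at 4 weeks, with an adjusted p of 0.0433 that 5 of 18 alternatives kept. At 8 weeks it was -0.011, 0.096 and -0.12, with an adjusted p of 0.917. The Runx2 probe of a noncoding transcript gave -0.15, -0.46, -2.64 and -0.027 at 4 weeks, and its replicate 3 stood apart through the control channel, at a log2 intensity of 9.01 against 6.31 to 6.87 on the other arrays of that time. With the tested Runx2 probes averaged, the 4-week value turned to -0.32. The remaining Runx2 probe was too dim to be tested. For Sp7 the log2 ratios were 0.26, 0.047, -0.16 and 0.0069 at 4 weeks, when no control channel was well above background, and 0.21, 0.27 and 0.12 at 8 weeks (adjusted p = 0.0913).

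Dmp1 encodes dentin matrix protein, a phosphoprotein that osteocytes and tooth cells deposit around themselves. Both of its channels were above background on each of the 7 arrays. The log2 ratio was -0.0036, 0.028, -0.22 and -0.14 at 4 weeks (adjusted p = 0.296) and 0.20, 0.27 and 0.058 at 8 weeks (adjusted p = 0.0843). The channel levels of DEP and control samples overlapped at both times, and neither mean passed the test.

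Acan encodes aggrecan, the large proteoglycan that holds water in cartilage, and Sox9 is the transcription factor that directs chondrocyte formation and is also expressed in gland epithelium. Acan was dim, with 1 of 4 control channels and 3 of 4 DEP channels above background at 4 weeks and all channels above it at 8 weeks. Its log2 ratios were -0.12, 0.021, -0.15 and 0.065 at 4 weeks (adjusted p = 0.574) and 0.32, 0.12 and 0.056 at 8 weeks (adjusted p = 0.111), so Acan passed at neither time. Sox9, whose probe was printed on 10 spots that were averaged, gave -0.13, -0.23, -0.14 and -0.15 at 4 weeks and 0.14, 0.29 and 0.19 at 8 weeks. These were small changes with little scatter. The mean was -0.16 ± 0.046 (SD, n = 4) at 4 weeks, 1.12-fold lower (adjusted p = 0.0273), and 0.20 ± 0.075 (SD, n = 3) at 8 weeks, 1.15-fold higher (adjusted p = 0.0193). The 8-week mean was 0.041 after median centring, and the 8-week call was also lost without replicate 2 or replicate 3 of that time. The 4-week call was lost without replicate 2, 3 or 4 of that time.

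Ctsk encodes cathepsin K, the protease with which osteoclasts digest collagen, and Acp5 encodes tartrate-resistant acid phosphatase, the classic histochemical stain for these cells. Ctsk gave -0.75, -0.48, -0.54 and -0.52 at 4 weeks and 0.27, 0.41 and 0.48 at 8 weeks. It thus lay on opposite sides of 0 at the 2 times on every array. The mean was -0.57 ± 0.12 (SD, n = 4) at 4 weeks, 1.49-fold lower (adjusted p = 0.000367), and 0.39 ± 0.11 (SD, n = 3) at 8 weeks, 1.31-fold higher (adjusted p = 0.0041), while the 8-week mean after median centring was 0.078. Acp5 gave -0.56, -0.73, -0.73 and -0.67 at 4 weeks and -0.29, -0.29 and -0.35 at 8 weeks. It was below 0 on all 7 arrays. The mean of -0.67 ± 0.081 (SD, n = 4), 1.59-fold lower with an adjusted p of 5.11e-05, was followed at 8 weeks by -0.31 ± 0.035 (SD, n = 3), 1.24-fold lower with an adjusted p of 0.00389. The other Acp5 probe gave means of -0.70 and -0.39 (adjusted p = 0.000151 and 0.00411). The 2 genes best known as osteoclast products thus had 8-week log2 ratios of opposite sign.

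The change between the times was tested as the 8-week minus the 4-week log2 ratio. It was higher for 6 of the 10 genes and lower for 0, where 14.0% of all genes were higher and 17.7% lower. It was largest for Bglap, 1.11 (adjusted p = 0.000172), followed by Ctsk, 0.96 (adjusted p = 0.00034), Ibsp, 0.75 (adjusted p = 0.000678) and Alpl, 0.73 (adjusted p = 0.00277). Sox9 and Acp5 moved by 0.37 and 0.36 (adjusted p = 0.00716 and 0.00832), and for Acp5 this was a smaller decrease at 8 weeks, not a rise above control. For Dmp1 (0.26, adjusted p = 0.0666), Acan (0.21, adjusted p = 0.13), Sp7 (0.16, adjusted p = 0.295) and Runx2 (-0.19, adjusted p = 0.143) the difference did not pass.

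The control channel shows where the levels themselves stood. Control levels were higher at 8 than at 4 weeks for 2 of the 10 genes, where 20.1% of all genes were, and lower for 3, where 12.8% were. Bglap rose by 0.40 on the log2 scale in control tissue (adjusted p = 0.00317), from 11.35 to 11.51 at 4 weeks to 11.74 to 11.90 at 8 weeks, and Alpl by 0.33 (adjusted p = 0.0142). Ibsp decreased by 0.28 (adjusted p = 0.0317), Ctsk decreased by 0.38 (adjusted p = 0.0186) and Acp5 decreased by 0.20 (adjusted p = 0.0478). The count of lower controls was 0 without replicate 1 or replicate 2 of the 8-week arrays, 1 without replicate 1, 2 or 4 of the 4-week arrays, and 0 with median centring. The count of higher controls was 4 without replicate 1 and 1 without replicate 3 of the 8-week arrays, and 5 with the scanner software's processed signals.

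In DEP tissue Bglap lay between 10.82 and 10.94 at 4 weeks and between 12.32 and 12.44 at 8 weeks. Its DEP levels lay below the control levels at the first time and above them at the second. For Ctsk the control range was 11.23 to 11.57 and the DEP range 10.74 to 11.03 at 4 weeks, and at 8 weeks the control range was 10.96 to 11.10 and the DEP range 11.30 to 11.58. Thus the Ctsk ratio turned with a lower control level and a higher DEP level at 8 weeks, on different slides.

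**Figure D2:**
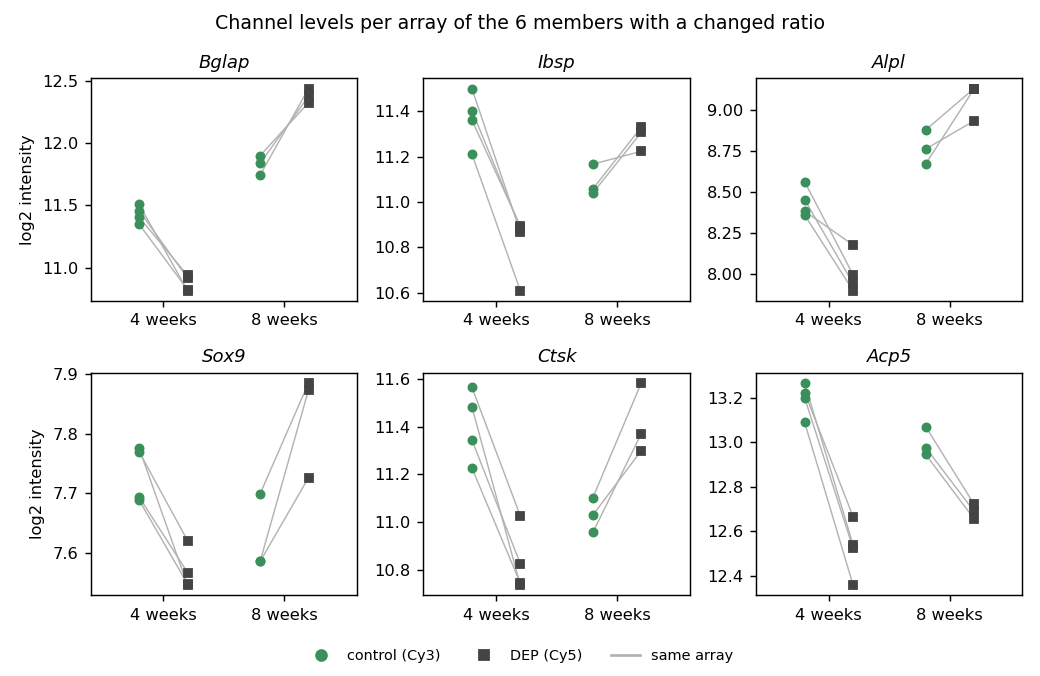
Log2 intensity of the control (Cy3, green circles) and DEP (Cy5, grey squares) channel of each array for the 6 genes called at 4 and 8 weeks, with lines joining the channels of 1 array and a vertical scale of its own in each panel. Lines run downwards at 4 weeks in all 6 panels and upwards at 8 weeks in all but Acp5, whose DEP channel stayed below control at 12.66 to 12.72 against 12.94 to 13.07.

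Other genes of the same cells were counted in lists. Of all genes tested, 17.9% were lower and 20.5% higher at 4 weeks, and 19.6% were lower and 17.5% higher at 8 weeks. Among 20 further osteoblast and mineralization genes, 17 were tested, of which 8 were lower and 1 was higher at 4 weeks, and 7 were higher and 1 lower at 8 weeks. Their median log2 ratio was -0.15 and then 0.18, or 0.051 at 8 weeks after median centring. The gene higher at 4 weeks was Atf4, named after its values were seen, whose probes disagreed, since the brightest gave 0.20 (adjusted p = 0.0239) and the other -0.32 (adjusted p = 0.00783). The gene lower at 8 weeks was Spp1, named likewise. It was lower at both times, -0.57 and -0.56 (adjusted p = 0.000458 and 0.000911), with a difference between the times of 0.0092 (adjusted p = 0.95). Col1a2, a chain of type I collagen, gave -0.24 (adjusted p = 0.0446) and 0.20 (adjusted p = 0.119), and Omd, the matrix proteoglycan osteomodulin, -0.96 (adjusted p = 3.9e-05) and -0.066 (adjusted p = 0.537). Msx2, a homeobox factor of bone and tooth germ, gave -0.043 (adjusted p = 0.645) and 0.92 (adjusted p = 9.92e-05). Of the 7 osteocyte genes, 6 were tested, with 2 lower and 2 higher at 4 weeks and 3 higher and 0 lower at 8 weeks. The 2 lower were Phex and Dkk1. Dkk1 was well above background in no channel at 4 weeks and passed the filter through the 8-week arrays. Phex, the endopeptidase lost in X-linked hypophosphataemia, gave -0.67 (adjusted p = 0.000165) and 0.83 (adjusted p = 9.28e-05). Fgf23, the phosphate-lowering hormone, was higher at both times by its brighter probe, 0.84 and 0.73 (adjusted p = 9.99e-06 and 2.72e-05), but its other probe was above background on no array. Pdpn, a glycoprotein of early osteocytes and of many epithelia, gave 0.18 and 0.52 (adjusted p = 0.0227 and 0.000306) by its brighter probe, while the dimmer gave -0.016 and 0.026 (adjusted p = 0.872 and 0.815).

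Of 15 further osteoclast genes, 14 were tested. At 4 weeks 2 were lower and 5 higher, and at 8 weeks 2 were lower and 5 higher, with medians of 0.085 and 0.053, the latter turning to -0.093 after median centring. The shares of all genes were 17.9% lower and 20.5% higher at 4 weeks, and 19.6% lower and 17.5% higher at 8 weeks. The protease Mmp9 was lower at both times, by values of -0.44 (adjusted p = 0.000895) and -0.37 (adjusted p = 0.00384), and was added to the named genes after its values were seen. Tnfrsf11a and Oscar of the same list were higher at both times and were added likewise. Tnfrsf11a gave 0.43 and 0.44 (adjusted p = 0.00109 and 0.00196), and Oscar 0.20 and 0.32 (adjusted p = 0.0325 and 0.00943). Nfatc1, the master transcription factor of the lineage, was higher at 4 weeks by its brighter probe, 0.60 (adjusted p = 0.000609), which gave -0.21 at 8 weeks (adjusted p = 0.076), whereas its other probe passed at neither time, at -0.088 and -0.11 (adjusted p = 0.759 and 0.771). Ocstamp, which takes part in cell fusion, gave 0.049 (adjusted p = 0.646) and 1.04 (adjusted p = 0.000109). Slc4a2, the chloride and bicarbonate exchanger that balances acid secretion, gave 0.30 and 0.22 (adjusted p = 0.00695 and 0.0393), the latter turning to -0.075 after median centring. Car2, carbonic anhydrase, gave 0.12 (adjusted p = 0.0904) and 0.32 (adjusted p = 0.00406). Calcr, the calcitonin receptor, was too dim to be tested.

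Of 25 further chondrocyte genes, 16 were tested and 9 were not above the filter, among them Matn1, Matn3, Hapln1, Cnmd, Ucma and Snorc, which are among the most specific cartilage genes. At 4 weeks 5 were lower and 5 higher, where 17.9% of all genes were lower and 20.5% higher. At 8 weeks 3 were lower and 2 higher, near or below the shares of all genes, 19.6% and 17.5%. The list medians were -0.14 and -0.036. Col2a1, the main cartilage collagen, was above background on all 7 arrays and passed at neither time, at -0.17 (adjusted p = 0.298) and -0.072 (adjusted p = 0.74). It read -0.71 on replicate 3 of 4 weeks, where its control level was 8.96 against 7.93 to 8.03 on the others. At 4 weeks Col11a1 and Col11a2 were lower, -0.66 and -0.25 (adjusted p = 0.000129 and 0.0231). Col9a2 and the dim Col9a1 were higher then, 0.27 and 0.14 (adjusted p = 0.0151 and 0.0488). None of these collagens passed at 8 weeks. Comp, a matrix protein of cartilage and tendon, varied between -2.14 and -0.033 among the 4-week arrays (adjusted p = 0.0784). The -2.14 was replicate 3, where its control level was 9.73 against 7.60 to 7.72. The untested Matn3 and Snorc were also high in that control channel, 7.89 against 5.74 to 5.95 and 8.08 against 5.97 to 6.11. Col11a1 was not, at 7.46 against 7.32 to 7.65. The part of this control sample in the 4-week chondrocyte ratios was not tested. Mia, secreted by cartilage and glands, was lower at both times, -0.38 and -0.69 (adjusted p = 0.00169 and 0.00015). Sox5, a partner of Sox9, was higher at both times by its brighter probe, 0.54 and 1.30 (adjusted p = 0.000613 and 1.18e-05), while its other probe was above background on no array. Fgfr3, a growth factor receptor of growth cartilage, gave -0.014 at 4 weeks, which did not pass, and 0.33 at 8 weeks (adjusted p = 0.00289), when its dimmer probe gave -0.034 (adjusted p = 0.877). Of the chondrocyte genes, 10 had both channels above background on each of the 7 arrays, against 11 of the 20 osteoblast genes.

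**Figure D3:**
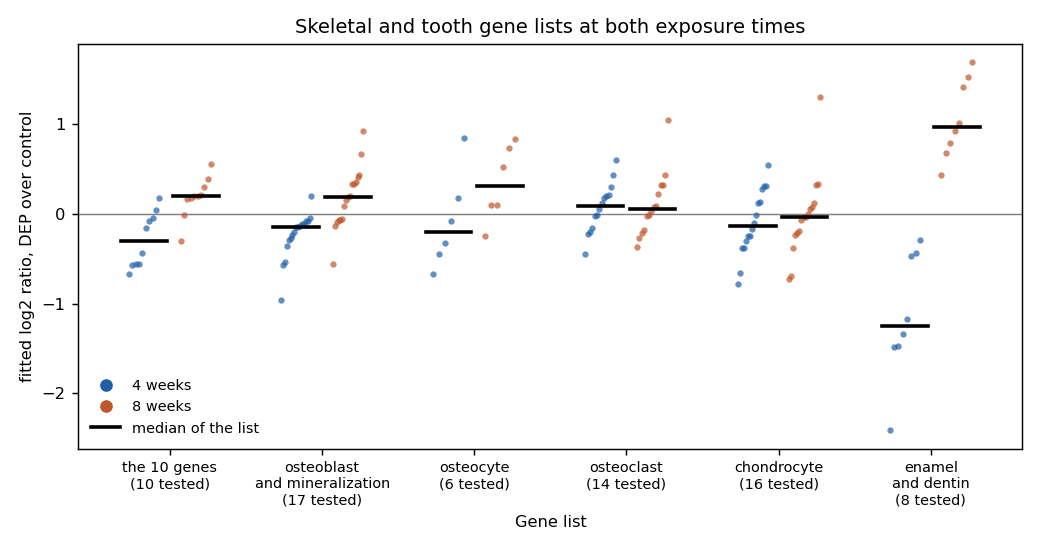
Fitted log2 ratio of DEP over control (vertical axis) of each tested gene in 6 lists, at 4 weeks (blue) and 8 weeks (orange), with the list median as a black bar. The enamel and dentin genes were all below 0 at 4 weeks and all above 0 at 8 weeks, with medians of -1.25 and 0.96, beyond those of the 10 genes, -0.30 and 0.20. At 4 weeks Mmp20 was well above background in no channel, and Amtn in 1 control channel only.

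Genes of tooth-forming cells moved with the bone genes and by more. All 8 enamel and dentin genes were tested, and 5 had both channels above background on every array. At 4 weeks 7 were lower, where 17.9% of all genes were, and at 8 weeks 8 were higher, where 17.5% were. Of the 7, Mmp20 was well above background in no channel at 4 weeks, and Amtn in 1 control channel only. Both passed the filter through the 8-week arrays. The list medians were -1.25 and 0.96, the latter 0.72 after median centring. Ambn (ameloblastin) gave -2.41 and 1.52 (adjusted p = 3.61e-06 and 3.04e-05), Amelx (amelogenin) -1.48 and 0.79 (adjusted p = 7.99e-06 and 0.00027), and Dspp, the dentin sialophosphoprotein of odontoblasts, -1.17 and 1.41 (adjusted p = 1.04e-05 and 6.08e-06). The summed intensity of the 8 genes was 16720 to 17844 in the control channels and 5624 to 6119 in the DEP channels at 4 weeks, and 45783 to 46653 against 80437 to 104923 at 8 weeks. The control level of these genes was also higher at 8 weeks for 8 of 8, where 20.1% of all genes were. Dmp1, Ibsp, Alpl, Msx2 and Phex are expressed in developing teeth as well as in bone. How much of the bone-gene ratios came with tooth tissue was not tested.

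Markers of other cells were counted as well, beside the same shares of all genes. These were 17.9% lower and 20.5% higher at 4 weeks, and 19.6% lower and 17.5% higher at 8 weeks. The olfactory neuron genes were higher at 4 weeks for 4 of 6 and lower at 8 weeks for 5 of 6, with medians of 0.44 and -0.58, opposite in sign to the bone genes. Omp, the olfactory marker protein, gave 0.89 and -0.43 (adjusted p = 3.9e-05 and 0.00239). The summed intensity of the 6 genes was 73668 to 86223 in control and 136140 to 151158 in DEP channels at 4 weeks, and 118168 to 136784 against 87786 to 90546 at 8 weeks. Of 7 macrophage genes tested, 2 were lower (Mrc1 and C1qa) and 0 higher at 4 weeks, and 1 was lower (C1qa) and 1 higher (C1qb) at 8 weeks. Their median log2 ratio was -0.20 at 4 weeks, with 6 of the 7 below 0, and -0.10 at 8 weeks, with 5 below 0. Of all 15701 genes tested, 8094 were below 0 at 4 weeks and 8309 at 8 weeks. The 4-week median was the value of Adgre1, whose other probe gave 0.074. Its brighter probe was dim then, well above background in 2 DEP channels and 1 control channel. Csf1r, the receptor that macrophages and osteoclast precursors share, gave -0.050 and -0.10 (adjusted p = 0.614 and 0.393) by its brightest probe, while another of its probes was higher at both times, 0.31 and 0.17 (adjusted p = 0.0018 and 0.0381), and a dimmer one passed at neither. Cd68, a lysosomal protein of macrophages, gave 0.083 and -0.070 (adjusted p = 0.334 and 0.503). The summed macrophage intensity was 2831 to 3111 in control and 2544 to 3176 in DEP channels at 4 weeks, and 3428 to 4020 against 3194 to 4074 at 8 weeks, so its ranges overlapped at both times. Of the respiratory and olfactory epithelium genes, 2 of 7 were higher and 2 lower at 4 weeks, and 3 were higher and 2 lower at 8 weeks. Of 6 skeletal muscle genes, 2 were lower and 1 higher at 4 weeks, and 4 were lower and 1 higher at 8 weeks. Of 5 nasal gland genes, 3 were higher and 0 lower at 4 weeks (Aqp5, Dmbt1 and Lpo), and 3 were higher (Dmbt1, Lpo and Ltf) and 1 lower (Muc5b) at 8 weeks. The part of these marker changes in the bone-gene ratios was not tested.

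Likeness of pattern was measured as Pearson's r of the log2 ratio over the 7 arrays, which fall into 2 exposure times and 2 slides. For Bglap the closest of 15493 genes were Tmem14a, Wfdc1, Serpinb5, Cfb and Chil3, with r between 0.995 and 0.997. For Ctsk they were Gm15421, Obp1a, Mup1, Matn2 and Ppic, with r between 0.996 and 0.998. For Acan they were Cd276, Cdkn1a, Alpk1, Itpkb and Foxd4, with r between 0.961 and 0.971. Among the set, Bglap and Ctsk had an r of 0.988, Bglap and Ibsp 0.929, Bglap and Alpl 0.923, and Bglap and Runx2 -0.718.

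**Figure D4:**
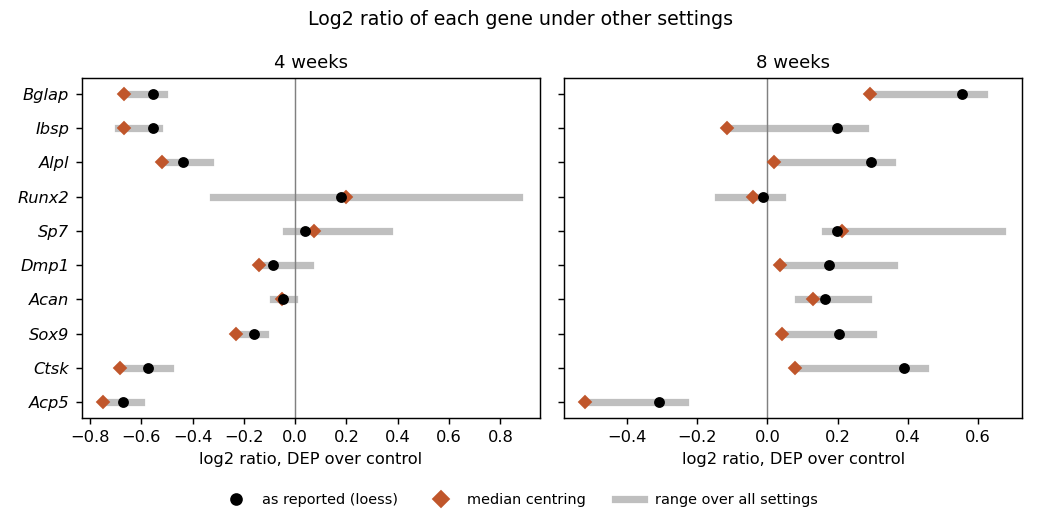
Log2 ratio of DEP over control of each gene at 4 weeks (left) and 8 weeks (right) as reported (black), with each array centred on its median in place of loess (orange diamonds), and its range over all settings (grey). At 8 weeks median centring moved Bglap from 0.55 to 0.29, Ctsk from 0.39 to 0.078 and Ibsp from 0.20 to -0.12, whereas at 4 weeks the 6 genes called lower stayed below 0 in all settings.

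Over the alternatives the 4-week value of Bglap lay between -0.67 and -0.51, that of Ctsk between -0.68 and -0.49 and that of Acp5 between -0.75 and -0.60. At 8 weeks Bglap lay between 0.29 and 0.62 and Acp5 between -0.52 and -0.23, whereas Alpl, Sox9 and Ctsk came close to 0 at their lowest, 0.018, 0.041 and 0.078. Between arrays, the log2 ratios over the 25162 tested probes correlated at 0.439 to 0.491 within 4 weeks, at 0.71 to 0.876 within 8 weeks and at 0.0869 to 0.286 between the times.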

How the data were processed

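The deposited files held, per the file headers, the median spot and local background intensity of both channels of a 4x44K mouse array, as the authors' Agilent Feature Extraction 10.10.1.1 wrote them, neither background-subtracted nor normalized, besides processed signals. The number of arrays limits the precision. Background was corrected with normexp (offset 50), whose parameters were fitted without spots marked as background outliers. Log2 ratios were normalized by loess within each array and channel levels by Aquantile, and spots of a probe were averaged. The offset draws the ratios of dim probes towards 0. The 39429 probes were named through RefSeq accessions (GRCm38.p6), which matched 28330. Log2 ratios were tested with limma 3.58.1 in R 4.3.3 (lmFit and eBayes, all 7 arrays, Benjamini-Hochberg over 25162 tested probes). The spread used is that between arrays. The code was checked on simulated data. The members and lists were chosen with earlier results of these data known. Named genes were all 10 members, the 3 brightest genes and the gene with the largest ratio at each time of every list, and the 5 genes most like Bglap, Acan and Ctsk. Mmp9, Tnfrsf11a, Oscar, Col2a1, Col9a1, Col9a2, Col11a1, Col11a2, Mmp20, Mrc1, C1qb, Atf4, Spp1, Dkk1 and Aqp5 were named after their values were seen. Alternatives covered background, normalization, dim-probe filter, variance trend, probe choice, threshold, the methods' t-test, each replicate left out and a replicate block.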

Additional observations from a re-analysis of the deposited data

Results flagged for a closer look

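Among the 56 groups of 4-week arrays examined, 4 held a sample whose gap to its nearest neighbour exceeded Dixon's 95% critical value, and chance marks about 1 in 20. The Runx2 probe of a noncoding transcript read -2.64 on replicate 3, against -0.46 to -0.027 on the other arrays. Fam20c, a kinase of secreted mineral proteins, read -1.84 on replicate 2, against -0.066 to 0.075. The gland mucin Muc5b read 0.060 on replicate 1, against 0.29 to 0.32. The muscle light chain Mylpf read -1.42 on replicate 2, against -0.42 to -0.29.

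The 8-week minus 4-week difference of the log2 ratio passed the test for the genes given here, some of which were named for their large ratios, and of all genes tested 14.0% were higher and 17.7% lower in it. Of the set these were Bglap (1.11), Ctsk (0.96), Ibsp (0.75), Alpl (0.73), Sox9 (0.37) and Acp5 (0.36). Among osteoblast and osteocyte genes, Phex (1.50), Msx2 (0.97), Omd (0.90), Bglap3 (0.68), Bglap2 (0.51), Col1a2 (0.44) and Pdpn (0.35) differed in the same direction. Of the osteoclast genes Ocstamp differed by 0.99 and Nfatc1 by -0.81, and of the chondrocyte genes Sox5 by 0.76, Fgfr3 by 0.34 and Mia by -0.32. The tooth genes Ambn (3.93), Dspp (2.59), Amelx (2.27) and Amtn (2.12) had the largest positive differences of these, though Amtn was above background in no DEP channel at 4 weeks. Olfactory neuron genes differed the other way, with Gng13 at -1.46, Omp at -1.32 and Stoml3 at -1.17. Of the epithelial genes Ermn differed by 1.37, Bpifa1 by 0.37 and Cyp2g1 by -0.66. The gland genes Lpo (-2.70), Muc5b (-1.79) and Dmbt1 (-0.49) and the muscle genes Ckm (-1.30), Acta1 (-0.91), Tnni2 (-0.61) and Tnnt3 (-0.39) were lower. In these differences the slide and the age at tissue collection cannot be told apart from the length of exposure.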

How the results depend on the processing

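The 6 genes of the set called lower at 4 weeks dropped to 0 only under the rule of an unadjusted p of at most 0.01 with 2-fold, by limma and by the methods' t-test alike, and that rule also gave 0 for each other count at 4 and 8 weeks, 1 for the difference and 0 for the control level in either direction. The count of 1 higher at 4 weeks (Runx2) was 0 with normexp fitted on all spots, with no background correction, with both channels required above background on all arrays, with no filter, with an intensity trend, with probes averaged, with the arrays of that time alone and with the methods' t-test after Benjamini-Hochberg adjustment, and 0 to 1 when each replicate was left out. The 5 genes higher at 8 weeks were 1 after median centring, 3 with no filter and 1 by the methods' t-test after adjustment, and 2 to 6 when each replicate was left out. Processed signals gave 1 gene with a lower difference in place of 0, and for the control level 5 higher and 1 lower in place of 2 and 3. Median centring gave 0 lower and no filter 1 lower for the control level, and leaving out each replicate gave 1 to 4 higher and 0 to 3 lower. The cause was not tested. Turned values were -0.32 for Runx2 and 0.11 for Bglap3 at 4 weeks with probes averaged, and -0.12 for Ibsp and -0.075 for Slc4a2 at 8 weeks after median centring. With a replicate block, 4 genes of the set were called higher in the difference (Sox9 and Acp5 were lost, adjusted p = 0.0693 and 0.0616) and 2564 genes in all in place of 4977. The labels do not say that the replicate numbers pair the arrays. Same-numbered arrays of the 2 times had deviations that correlated at -0.00651, -0.00672 and 0.0168. So few arrays cannot show whether they were paired. Signals near background limit Runx2, Sp7 and Acan.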

Other observations

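Further genes named by the same rule gave these log2 ratios at 4 and 8 weeks. The complement gene C1qa, a product of tissue macrophages, was lower at both times, -0.41 and -0.45 (adjusted p = 0.00313 and 0.00381). Lyz2, lysozyme of macrophages and neutrophils, gave -0.27 and -0.35 (adjusted p = 0.154 and 0.123). Adgre1, a macrophage surface receptor, gave -0.20 and -0.79 (adjusted p = 0.688 and 0.176) by its brighter probe. That probe read -2.37 on replicate 1 of 8 weeks, where its control level was 9.07 against 6.61 and 6.66 on the others. The dimmer Adgre1 probe gave 0.074 and 0.19 (adjusted p = 0.47 and 0.135). Krt8, a keratin of simple epithelium, was lower at both times, -0.51 and -0.59 (adjusted p = 0.0173 and 0.0174), and Krt5, a keratin of basal cells, gave 0.16 and 0.053 (adjusted p = 0.123 and 0.679) by its brighter probe, while the other was lower at 4 weeks, -0.58 (adjusted p = 0.0235). Ltf, the gland protein lactoferrin, gave 0.19 and 0.36 (adjusted p = 0.149 and 0.0299).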
